A study of Bos taurus with 18 samples.

Results

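The genes described here lie on bovine chromosome 22, which corresponds in large part to the short arm of human chromosome 3. They are called the block below, although other genes lie between them. The list holds 56 genes of this chromosome, and 53 of them were found among the 24596 genes of the count table. NBEAL2, GPX1 and LAMB2 were not analysed here. The block was chosen on its values in the Simmental-like libraries, through the ratio of each primary and each immortalized library to the senescent mean. A member was kept where its mean over the 9 Simmental-like libraries was at least 5 counts per 1000000 counts of the library (CPM), which held for 51 members. PFKFB4 at 4.42 CPM and KLF15 at 1.23 CPM lay below that level, and P4HTM at 7.07 CPM and KLHDC8B at 7.22 CPM were the kept members nearest to it. Since these values chose the block, every Simmental-like value of a member below is a description and carries no p-value. Where such a member is said to be called or to pass the threshold of the fit over all genes, this only sorts members by the size of a change against its spread, and it is not a test of the block. The Holstein-like libraries took no part in the rule and were tested.

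Genes on one chromosome share its copy number, so a gained or lost chromosome segment is known to shift the transcripts of many neighbouring genes at once in cultured cells. The human counterpart of this segment is known for an unusually dense group of growth-restraining and chromatin genes, among them BAP1, PBRM1, SETD2, RASSF1, NPRL2 and TUSC2, and for CTNNB1 and RHOA. Fibroblasts that stop dividing after long culture are called senescent, and rare cells that resume division without an introduced gene are called spontaneously immortalized.

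The study followed bovine fibroblasts through extended culture and compared 3 stages by RNA sequencing. The Simmental-like groups were the primary culture PBF-13, the senescent culture Sn-BF-13 and the immortalized culture HUN-BF-13, and the Holstein-like groups were PBF-15, Sn-BF-15 and HUN-BF-15. Beyond the names given here, the labels give no added agent, transgene or age. Each group has 3 libraries, 18 in all. The libraries are labelled as biological replicates, but no label says that they came from separate cultures or animals, so a p-value covers only the variation among the libraries at hand, which may be technical. The sample descriptions and the count table carry other culture names. The Simmental-like primary libraries are named BDF-20-3B-4 there, the senescent ones BDF-20-MultiXray-Ctrl and the immortalized ones BF-13, so that the senescent to immortalized comparison runs from a BDF-20 to a BF-13 name. What MultiXray-Ctrl stands for is not given in the sources used here. The Holstein-like names are BEF for primary, BF-15-P9 for senescent and BF-15-P23 for immortalized libraries. Stage and named culture cannot be told apart.

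Total counts ran from 18.2 to 23.2 M (M for 1000000) in the Simmental-like libraries and from 1.42 to 14.1 M in the Holstein-like ones, so that 3 counts correspond to between 0.129 and 0.165 CPM in the former and up to 2.11 CPM in the latter. All 10 fibroblast markers checked were present in the Simmental-like libraries, at a summed 41218 to 66210 CPM, whereas the skeletal muscle, heart, liver and kidney markers summed to at most 5.42 CPM each. Endothelial, immune and epithelial markers summed to at most 17.3 CPM. Chondrocyte and osteoblast markers summed to 0.692 to 1.08 CPM in the primary and 43.9 to 61.5 CPM in the later Simmental-like libraries, melanocyte and Schwann markers to 1.98 to 20.7 CPM, and their part in the results was not tested. In the Holstein-like libraries the labelled cell type was not borne out by its markers. Fibroblast markers summed to 743 to 753 CPM in the primary libraries beside 160076 to 161538 CPM of skeletal muscle markers. Liver markers reached 90059 to 117981 CPM in senescent libraries 2 and 3 and in immortalized library 1, heart markers 37020 CPM in senescent library 1, and kidney markers 4708 CPM in immortalized library 2. Only immortalized library 3, at 66878 CPM of fibroblast markers, lay near the highest Simmental-like value, and it also held 4724 CPM of endothelial and 4374 CPM of immune markers. Some libraries were nearly equal. Set against the spread that counting alone gives, the mean chi-square of a gene was 1.21 to 1.23 between Holstein-like primary libraries and 1.36 between Simmental-like senescent libraries 1 and 2, but 370.3 between Simmental-like primary libraries 1 and 2.

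In the Simmental-like libraries the block as a whole stood higher in the immortalized stage. The median over the 51 kept members of the log2 ratio to the senescent mean was 0.50, 0.51 and 0.56 in immortalized libraries 1, 2 and 3, a mean of 0.52 ± 0.04 (SD, n = 3 libraries) or a 1.44-fold level. The same median was 0.24, -0.01 and 0.07 in the primary libraries. All 3 immortalized libraries lay above all 3 primary and all 3 senescent ones, whose own medians were -0.01, 0.00 and 0.03. Against the primary mean the immortalized medians were 0.40, 0.40 and 0.46, a mean of 0.42 ± 0.03 (SD, n = 3). These ratios use TMM CPM, which are CPM after trimmed-mean scaling within a line, with 0.5 CPM added. Over all 10139 genes at 5 CPM or more the immortalized medians against senescent were 0.02 to 0.03. This level is the mean over the Simmental-like libraries, also where Holstein-like values are given below.

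The block's share of all counts was 0.42, 0.53 and 0.50% in primary, 0.59, 0.60 and 0.60% in senescent and 0.78, 0.79 and 0.78% in immortalized libraries. This share, which scales each library by its total, was highest in the immortalized stage and did not overlap between stages. The order of the primary and senescent stages depended on the scaling. The summed TMM CPM of the members were 5766 to 5784 in primary, 5128 to 5206 in senescent and 7574 to 7590 in immortalized libraries. Since these are bulk libraries, fewer cells with the transcript and less transcript per cell cannot be told apart.

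**Figure D1:**
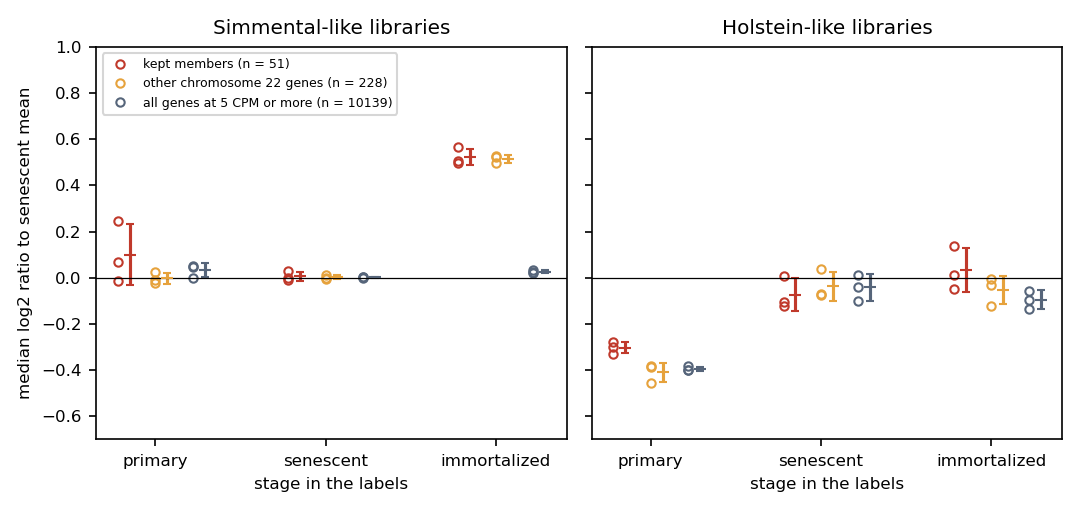
Median log2 ratio to the senescent mean (vertical axis) at each stage for the 51 kept members, the 228 other chromosome 22 genes and all 10139 genes at 5 CPM or more, with 1 open circle per library and the mean ± SD beside it, for each line. In the Simmental-like panel the members and the other chromosome 22 genes sit near 0.5 in the immortalized libraries while all genes sit near 0, and in the Holstein-like panel the 3 gene groups lie close together. The 5 CPM level is that of the Simmental-like libraries in both panels.

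From senescent to immortalized, 28 of the 51 kept members were higher past the edgeR threshold (adjusted p under 0.05 over all genes tested) and 0 were lower, where 16.4% of all 13099 genes were higher and 16.1% lower. The log2 change was above 0 in 48 members, with a median of 0.52, a middle range of 0.26 to 0.75 and extremes of -0.40 and 1.79. All 3 immortalized libraries lay above all 3 senescent ones for 44 members, where 35.6% of all genes did so. IP6K1 and USP4 lay wholly below, and DCP1A, DAG1, PRKAR2A, SMARCC1 and SETD2 overlapped. From primary to senescent, 8 members were higher and 16 lower past the threshold, beside 28.3% and 29.7% of all genes, and the median change was -0.08. From primary to immortalized, 25 were higher and 0 lower, beside 24.9% and 25.5% of all genes, with a median of 0.45. The choice of the block rests on these same contrasts, so nothing is read from these shares.

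The counts depended on single libraries and on the scaling. Without senescent library 1 the immortalized versus senescent count was 16, without senescent library 2 it was 18, and with the counts of both summed into 1 library it was 18, all of them higher. The share of all genes called fell as well, from 32.4% to 21.9, 21.8 and 22.4% in the same settings. Without senescent library 1 the senescent versus primary count was 15, while all genes called fell from 58.0% to 44.1%. In the immortalized versus senescent comparison CTNNB1, PRKCD, GNL3, IP6K2, CCDC12, NCKIPSD and UQCRC1 lost their call whenever any 1 of the senescent or immortalized libraries was left out. QARS, DALRD3, GMPPB, RBM6 and SPCS1 lost it without at least senescent library 1. From primary to senescent, RASSF1, IP6K1, SMARCC1, HYAL2, NDUFAF3 and SPCS1 lost theirs when any 1 senescent library was left out, NCKIPSD and PRKCD without senescent library 1 or 2, KLHDC8B without senescent library 1 and USP19 without senescent library 3 or primary library 3. From primary to immortalized, BAP1 did so without any 1 of the immortalized libraries, PBRM1 and SMARCC1 without immortalized library 1 or primary library 3, MAP4 without immortalized library 1 or 2, and CTNNB1 and IP6K2 without any 1 senescent or immortalized library. When libraries were scaled by their totals instead of TMM, which moved the median of all genes by 0.46 in the senescent versus primary comparison, the members split into 23 higher and 5 lower in place of 8 and 16, with 11 of the 16 lower calls lost, and all genes into 5955 higher and 1840 lower in place of 3704 and 3887.

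Members showed several orders of level over the 3 stages, called courses here. The stages carry different culture names, so a course cannot be told apart from a difference between cultures. The 14 that were lower in senescent than in primary and higher in immortalized than in senescent libraries were TKT, PRKCD, SPCS1, GLT8D1, CYB561D2, HYAL2, GNAI2, APEH, KLHDC8B, QARS, NCKIPSD, UQCRC1, SHISA5 and CCDC12. Another 13 changed past the threshold only at the second step, upward, and were also higher in immortalized than in primary libraries: CTNNB1, SFMBT1, GNL3, NT5DC2, NISCH, TUSC2, RBM6, GMPPB, IMPDH2, DALRD3, WDR6, IP6K2 and DHX30. TRAIP was higher at both steps. DCP1A, RASSF1, IP6K1, USP19, ARIH2, SMARCC1 and SETD2 were higher in senescent libraries with no call afterwards, and NDUFAF3 and SLC25A20 were lower with no call afterwards. The remaining 14, PBRM1, BAP1, NPRL2, RBM5, UBA7, RNF123, DAG1, TCTA, RHOA, USP4, P4HTM, PRKAR2A, TREX1 and MAP4, passed the threshold at neither step. The spread of each gene was estimated over all 9 libraries, so the SE and the call of a step also carry the scatter of the third stage. In a fit on the 6 libraries compared, 15 further members passed from senescent to immortalized. All genes called went from 32.4% to 66.8% in that fit. The difference between the 2 steps was not itself tested for any member. How many of all genes follow each course was not counted, so no course is read as particular to the members. The courses also depend on the scaling. With total-count scaling TKT, PRKCD, SPCS1, HYAL2, APEH, KLHDC8B, QARS, NCKIPSD, UQCRC1, NDUFAF3 and SLC25A20 lost their call at the first step. CTNNB1, GMPPB, IP6K2, NISCH, PRKCD, QARS and NCKIPSD lost theirs at the second.

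**Figure D2:**
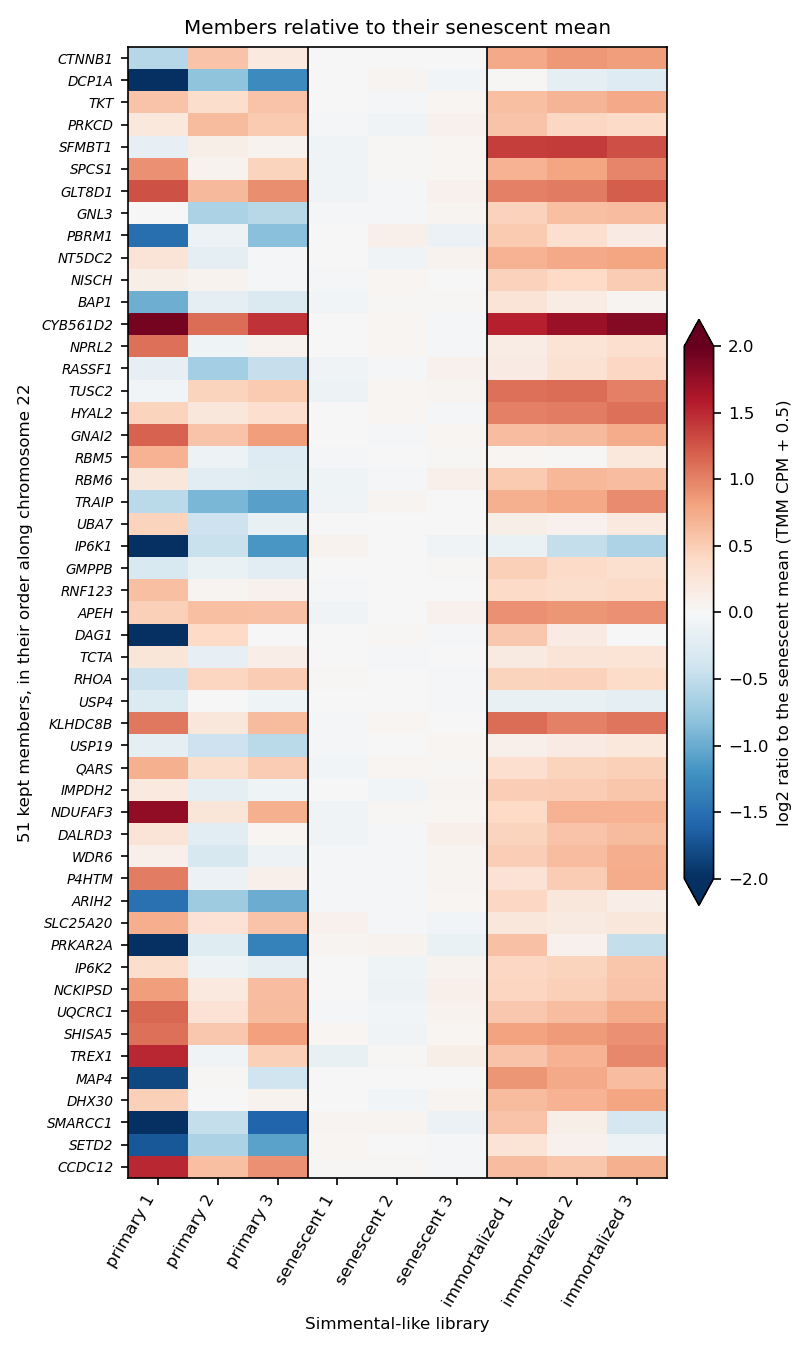
Each row is 1 of the 51 kept members in chromosome order and each column 1 Simmental-like library, coloured by the log2 ratio of its TMM CPM + 0.5 to the senescent mean (red above, blue below, colours ending at -2 and 2). Most rows are red in all 3 immortalized columns, while the primary columns hold both colours, and primary library 1 holds the strongest of both.

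Among the 13 members of growth control and signalling, 7 were higher and 0 lower from senescent to immortalized, beside 16.4% and 16.1% of all genes, with a median log2 change of 0.46. CTNNB1 encodes beta-catenin, which joins cadherins to the cytoskeleton and carries Wnt signals into the nucleus. Its level was 381, 838 and 644 TMM CPM in the primary, 564, 563 and 563 in the senescent and 949, 1027 and 1006 in the immortalized libraries. The immortalized libraries were all above the others, the senescent ones nearly equal, and the primary ones spread on both sides of them. The log2 change was 0.82 (SE 0.24) from senescent to immortalized, 1.76-fold, and -0.14 (SE 0.24) from primary to senescent. The latter value turned to 0.29 with total-count scaling and to 0.13 without primary library 2. From primary to immortalized it was 0.68, and 0.40 without primary library 1.

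RHOA, the small GTPase that drives stress fibres and contraction, was measured at 273, 497 and 524 TMM CPM in the primary, 372, 368 and 363 in the senescent and 499, 509 and 475 in the immortalized libraries. Primary library 1 was the lowest of all 9 while the other 2 primary libraries matched the immortalized ones, and the change from senescent to immortalized was 0.43 (SE 0.21) without reaching the threshold. GNAI2, an inhibitory G protein subunit that restrains adenylyl cyclase, stood at 1252, 816 and 985 TMM CPM in the primary, 548, 543 and 564 in the senescent and 845, 863 and 921 in the immortalized libraries. Its groups did not overlap between primary and senescent or between senescent and immortalized libraries, with changes of -0.88 (SE 0.15) and 0.67 (SE 0.15). The level in immortalized libraries lay within the primary range.

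RASSF1 encodes a scaffold known as a tumour suppressor that binds the kinases of the Hippo pathway. It was found at 64.4, 45.3 and 52.4 TMM CPM in the primary, 69.1, 71.4 and 77.1 in the senescent and 81.5, 89.8 and 96.6 in the immortalized libraries, a stepwise order without overlap between neighbouring stages. The first step was 0.43 (SE 0.14) and passed the threshold, and the second was 0.30 (SE 0.14) and did not. The measured value sums all its transcripts, so its isoforms were not separated. NPRL2, a GATOR1 subunit that holds mTORC1 back when amino acids are scarce, was at 37.8, 16.3 and 18.4 TMM CPM in the primary, 17.3, 17.9 and 17.02 in the senescent and 19.4, 21.1 and 22.002 in the immortalized libraries. Only primary library 1 stood apart, and the change of 0.26 (SE 0.29) from senescent to immortalized was smaller than its SE.

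TUSC2, a small mitochondrial protein known as a candidate tumour suppressor, was at 7.49, 10.8 and 11.5 TMM CPM in the primary, 7.24, 8.07 and 8.15 in the senescent and 17.4, 17.6 and 16.2 in the immortalized libraries. All immortalized libraries lay far above the senescent and primary ones, at 2.18-fold (log2 1.12 (SE 0.17)). BAP1 is a deubiquitinase that removes ubiquitin from histone H2A and is known as a tumour suppressor. It was at 40.7, 71.2 and 65.9 TMM CPM in the primary, 78.05, 81.8 and 82.4 in the senescent and 97.1, 89.9 and 83.7 in the immortalized libraries, with primary libraries lowest and a change of 0.16 (SE 0.19) at the second step, which became -0.0012 with total-count scaling. From primary to immortalized it was 1.52-fold higher and passed the threshold, a log2 change of 0.61 that was 0.38 without primary library 1.

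PRKCD, protein kinase C delta, was at 29.6, 39.5 and 36.6 TMM CPM in the primary, 25.01, 24.2 and 27.04 in the senescent and 38.1, 33.9 and 33.4 in the immortalized libraries. The senescent libraries lay below the other 6, with changes of -0.47 (SE 0.13) and 0.47 (SE 0.13). PRKAR2A, a regulatory subunit of protein kinase A, was at 12.1, 89.8 and 41.1 TMM CPM in the primary, 109.5, 112 and 96.2 in the senescent and 159, 113 and 76.02 in the immortalized libraries. Both its primary and its immortalized libraries were widely spread, and neither step, at 1.15 (SE 0.59) and 0.13 (SE 0.58), passed the threshold although the first was among the 3 highest of the block.

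IP6K1 and IP6K2 encode inositol hexakisphosphate kinases, which make inositol pyrophosphates. IP6K1 was at 8.72, 32.5 and 19.6 TMM CPM in the primary, 46.6, 44.5 and 42.5 in the senescent and 40.6, 31.96 and 28.98 in the immortalized libraries. It was the member with the lowest change from senescent to immortalized, -0.40 (SE 0.38), with all immortalized below all senescent libraries but no call, after a rise of 1.13 (SE 0.39) from primary to senescent. IP6K2 went the other way at the second step, with 0.48 (SE 0.15). NISCH, an integrin-binding scaffold, changed by 0.46 (SE 0.09) and NCKIPSD, an adaptor that binds NCK, by 0.50 (SE 0.17) at that step, both past the threshold.

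**Figure D3:**
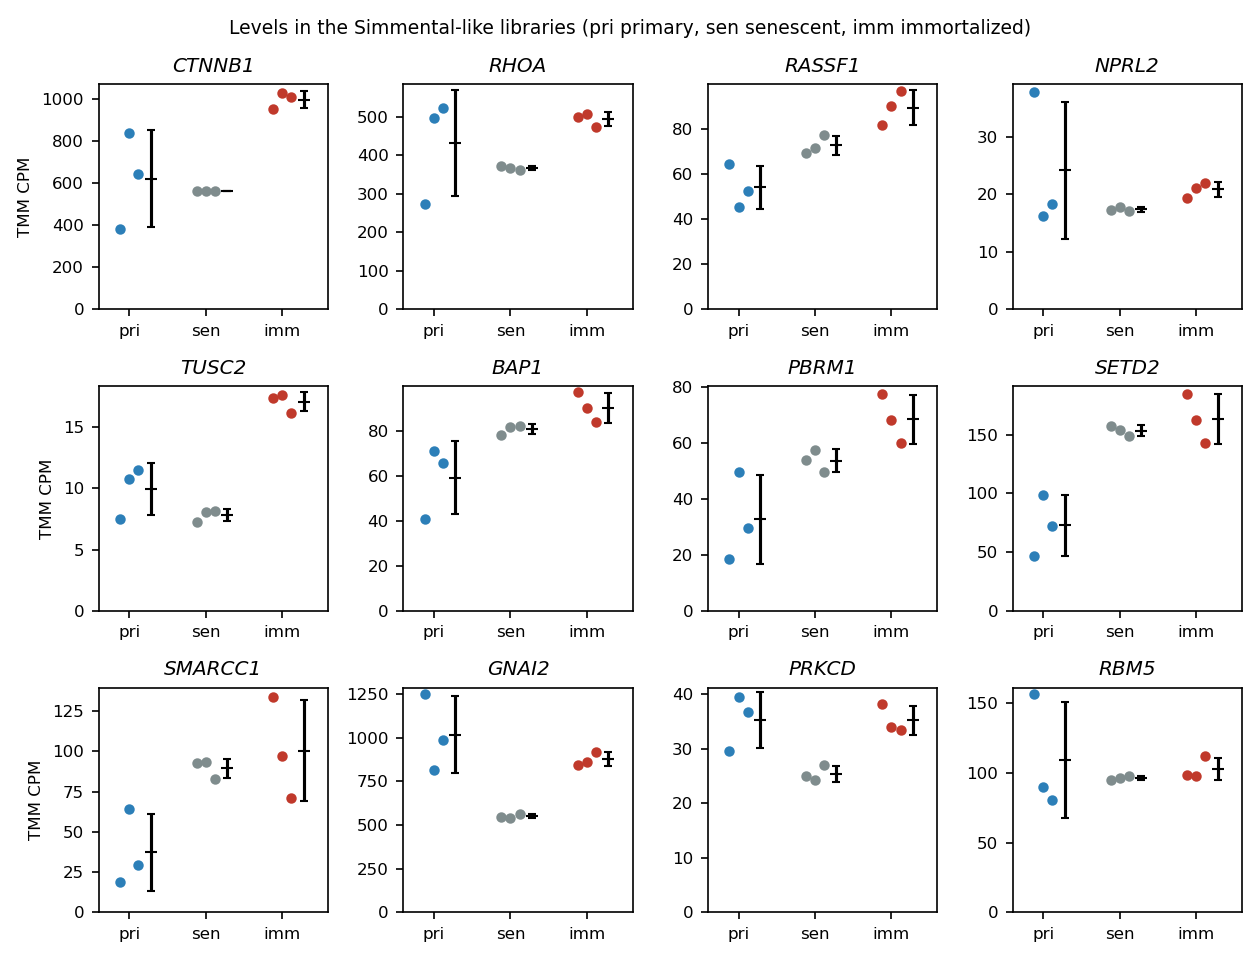
Levels in TMM CPM (vertical axes starting at 0) of the 12 members named for growth control or chromatin, with 1 point per Simmental-like library and the mean ± SD (n = 3) beside each stage. CTNNB1 and TUSC2 are highest in the immortalized libraries and PRKCD is lowest in the senescent ones. SETD2 and SMARCC1 are lowest in the primary libraries, and primary library 1 lies apart from the other 2 in most panels.

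Of the 6 kept chromatin, transcription and DNA members, 3 were higher in senescent than in primary libraries, 2 in immortalized than in senescent and 5 in immortalized than in primary, beside 28.3%, 16.4% and 24.9% of all genes, with medians of 0.80, 0.56 and 1.28. SETD2, SMARCC1, PBRM1 and SFMBT1 are long genes, and long members were low in primary library 1, with a median log2 ratio to primary library 2 of -1.06. SETD2, the methyltransferase that marks histone H3 along transcribed genes, was at 46.9, 98.7 and 72.6 TMM CPM in the primary, 158, 154 and 149 in the senescent and 185, 163 and 143 in the immortalized libraries. Senescent libraries were 2.11-fold above primary ones, and the second step was 0.09 (SE 0.23) with overlapping groups. SMARCC1, a core subunit of the SWI/SNF remodelling complexes, was at 18.6, 64.3 and 29.5 TMM CPM in the primary, 92.6, 93.5 and 82.7 in the senescent and 134, 97.1 and 70.9 in the immortalized libraries. The first step was 1.25 (SE 0.42) and the second 0.17 (SE 0.41), and immortalized library 1 lay above and library 3 below the senescent range; without immortalized library 1 the second value was -0.09, and without primary library 2 the first was 1.89.

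PBRM1, the subunit that defines the polybromo form of those complexes, was at 18.5, 49.7 and 29.7 TMM CPM in the primary, 53.8, 57.5 and 49.4 in the senescent and 77.2, 68.04 and 59.8 in the immortalized libraries. The immortalized libraries were above all senescent ones, and neither step passed the threshold while the change from primary to immortalized, 1.06 (SE 0.31), did. SFMBT1, a methyl-lysine reader found in repressor complexes, was at 8.17, 10.1 and 9.72 TMM CPM in the primary, 8.83, 9.39 and 9.58 in the senescent and 25.02, 25.3 and 23.5 in the immortalized libraries. Primary and senescent libraries overlapped and the immortalized ones were 2.65-fold higher, a log2 change of 1.41 (SE 0.12), the second highest of the block. TRAIP, a ubiquitin ligase that acts at stalled replication forks, was at 7.36, 5.61 and 4.92 TMM CPM in the primary, 10.4, 11.4 and 11.003 in the senescent and 18.2, 19.1 and 21.7 in the immortalized libraries. The groups were ordered without overlap, with steps of 0.88 (SE 0.17) and 0.84 (SE 0.16). TREX1, the exonuclease that clears cytosolic DNA, changed by 0.77 (SE 0.36) at the second step without a call.

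KLF15, a zinc finger factor of metabolic genes that lay below the level filter, had few counts in the later stages. They summed to 181 at the primary, 43 at the senescent and 1 at the immortalized stage. The primary to immortalized ratio of its scaled counts was 209.2 (95% exact binomial interval 37.1 to 8310, counting error only), and the senescent to immortalized ratio 37.7 (6.42 to 1525).

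Of the 9 members of RNA and protein synthesis, 7 were higher and 0 lower from senescent to immortalized, beside the same shares of all genes, with a median of 0.56. DCP1A, an activator of messenger RNA decapping, was at 18.1, 41.8 and 29.96 TMM CPM in the primary, 73.03, 76.5 and 70.4 in the senescent and 74.3, 64.3 and 61.2 in the immortalized libraries. It had the highest first step of the block, 1.29 (SE 0.26), and a second step of -0.14 (SE 0.25). RBM5, a splicing regulator of apoptosis genes, was at 156, 89.7 and 80.7 TMM CPM in the primary, 94.4, 96.1 and 97.8 in the senescent and 98.3, 97.8 and 112 in the immortalized libraries. Apart from primary library 1, its libraries were close together, and its second step was 0.10 (SE 0.23). Its relative RBM6 changed by 0.61 (SE 0.14) at that step and passed the threshold.

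CCDC12, a spliceosome-associated protein, was at 37.9, 20.2 and 24.98 TMM CPM in the primary, 13.3, 13.2 and 12.7 in the senescent and 20.2, 19.6 and 21.7 in the immortalized libraries. The senescent libraries were the lowest, with -1.08 (SE 0.21) at the first step and 0.65 (SE 0.21) at the second. GNL3, the nucleolar GTPase nucleostemin of proliferating cells, changed by 0.56 (SE 0.16) at the second step and stood 1.91-fold above primary in the immortalized libraries. DHX30, a helicase of mitochondrial ribosome assembly, changed by 0.71 (SE 0.13). The genes of tRNA were close together at the second step: 0.42 for the glutaminyl-tRNA synthetase QARS, 0.62 for WDR6 and 0.56 for DALRD3, both of tRNA modification, all 3 past the threshold.

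The 8 members of protein turnover and secretion changed least at the second step, with a median of 0.32 and 3 higher past the threshold, beside 16.4% of all genes. USP4, a deubiquitinase, was at 109, 131 and 125 TMM CPM in the primary, 134, 134 and 130.1 in the senescent and 120.0, 119 and 116 in the immortalized libraries. All immortalized libraries lay below all senescent ones, by -0.16 (SE 0.09), without a call. The 3 that passed were APEH, which releases acylated amino acids from peptides, at 0.91 (SE 0.09), SPCS1, a subunit of the signal peptidase, at 0.83 (SE 0.20) and SHISA5, a membrane protein of the endoplasmic reticulum, at 0.86 (SE 0.14). These 3 were also lower in senescent than in primary libraries. ARIH2, a ubiquitin ligase, and USP19, a deubiquitinase, were higher at the first step, by 1.04 and 0.38, and not called at the second. UBA7, which activates the ubiquitin-like protein ISG15, changed by 0.13 and RNF123, a ligase for the cell cycle inhibitor CDKN1B, by 0.38 at the second step, neither past the threshold.

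Of the 9 kept metabolic, redox and mitochondrial members, 0 were higher and 5 lower from primary to senescent (median -0.50, beside 28.3% and 29.7% of all genes), and 6 were higher and 0 lower from senescent to immortalized (median 0.61, beside 16.4% and 16.1%). Under total-count scaling TKT, UQCRC1, NDUFAF3 and SLC25A20 lost their first-step calls. CYB561D2, a transmembrane protein of the cytochrome b561 family, was at 24.6, 13.9 and 17.5 TMM CPM in the primary, 6.06, 6.30 and 6.01 in the senescent and 19.1, 21.5 and 23.1 in the immortalized libraries. It had both the lowest first step, -1.60 (SE 0.21), and the highest second step, 1.79 (SE 0.21), 3.46-fold, of all 51 members. NDUFAF3, an assembly factor of respiratory complex I, was at 81.7, 28.1 and 38.9 TMM CPM in the primary, 22.4, 24.1 and 24.4 in the senescent and 31.3, 38.5 and 38.6 in the immortalized libraries. Primary library 1 was far above every other library, the first step was -1.07 (SE 0.34) and the second 0.61 (SE 0.34) without a call. Without primary library 1 the first value was -0.51.

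TKT, the transketolase of the pentose phosphate pathway, was at 535, 463 and 534 TMM CPM in the primary, 361, 353 and 369.6 in the senescent and 548, 581 and 610.3 in the immortalized libraries. The senescent libraries lay below the other 6, with steps of -0.50 (SE 0.09) and 0.68 (SE 0.10). UQCRC1, a core subunit of respiratory complex III, was at 558, 306 and 387 TMM CPM in the primary, 245, 241 and 264 in the senescent and 362, 385 and 419 in the immortalized libraries, again lowest in the senescent libraries, with steps of -0.74 and 0.64. IMPDH2, the rate-limiting enzyme of guanine nucleotide synthesis, changed by 0.52 (SE 0.11) at the second step only. NT5DC2, a nucleotidase-like protein, changed by 0.75 and GMPPB, which makes GDP-mannose for glycosylation, by 0.40 at that step, both past the threshold. SLC25A20, the mitochondrial carnitine carrier, changed by -0.55 at the first step and 0.22 at the second, and was the one member wholly below primary in the immortalized libraries. P4HTM, a membrane-bound prolyl hydroxylase, changed by 0.56 without a call. PFKFB4, a regulator of glycolysis below the level filter, was at 3.07, 2.78 and 2.06 TMM CPM in the primary, 5.19, 3.99 and 4.37 in the senescent and 5.58, 5.51 and 5.89 in the immortalized libraries.

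The 6 kept members of matrix, adhesion, cytoskeleton and membrane had the highest median of any role at the second step, 0.92, with 3 higher past the threshold, beside 16.4% of all genes. KLHDC8B, a kelch protein of cell division, was at 9.88, 5.37 and 7.29 TMM CPM in the primary, 4.35, 4.63 and 4.54 in the senescent and 10.3, 9.58 and 9.97 in the immortalized libraries, 2.21-fold from senescent to immortalized. GLT8D1, a glycosyltransferase, was at 52.5, 33.8 and 41.1 TMM CPM in the primary, 20.2, 21.04 and 22.7 in the senescent and 43.2, 44.5 and 49.7 in the immortalized libraries, which is 2.15-fold. HYAL2, a cell surface hyaluronidase, was at 21.9, 18.8 and 20.4 TMM CPM in the primary, 16.1, 16.4 and 15.5 in the senescent and 32.8, 32.9 and 34.97 in the immortalized libraries. Its groups were separate at all 3 stages, with -0.35 (SE 0.10) at the first step, which became 0.13 without a call under total-count scaling, and 1.07 (SE 0.10) at the second.

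MAP4, a microtubule-associated protein, was at 130.0, 471 and 349 TMM CPM in the primary, 462, 464 and 457 in the senescent and 851, 783 and 709 in the immortalized libraries. All immortalized libraries lay above the others, the step of 0.76 (SE 0.37) did not pass, and primary library 1 was far below its group. DAG1, which encodes dystroglycan, a receptor for laminin, was at 22.6, 120.0 and 91.2 TMM CPM in the primary, 91.1, 93.2 and 89.5 in the senescent and 133, 103 and 91.9 in the immortalized libraries, with primary library 1 far below the rest and no call. TCTA, a small membrane protein, changed by 0.25.

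For some of these genes the reads may be shared with a neighbour. By their RefSeq spans SPCS1 overlaps GLT8D1, TUSC2 overlaps HYAL2, GMPPB overlaps RNF123, IMPDH2 overlaps NDUFAF3 and DALRD3 overlaps WDR6. KLHDC8B, NT5DC2, RBM6, SLC25A20 and PRKAR2A overlap genes that are no members, as do GMPPB and RNF123. Whether counting used the strand is not given in the sources used here, so reads of a shared stretch cannot be told apart.

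The other genes of the chromosome showed a shift of like size. The RefSeq gene table of assembly ARS-UCD2.0, used for chromosome and gene order only, placed 467 genes of the count table on chromosome 22, of which 279 had 5 CPM or more. The 228 that are no members gave medians of 0.52, 0.50 and 0.53 in the immortalized libraries against senescent, a mean of 0.51 ± 0.02 (SD, n = 3), which differs from the members' 0.52 by less than the SD over libraries. Of these 228, 115 were higher and 8 lower past the threshold, beside 16.4% and 16.1% of all genes. Against the primary mean they gave 0.56 ± 0.02 where the members gave 0.42 ± 0.03.

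Along the gene order, the 11 members from DCP1A to BAP1 had a median change of 0.56 from senescent to immortalized and the 39 from CYB561D2 to CCDC12 one of 0.50, with CTNNB1 lying ahead of both. The other genes gave 0.57 before CTNNB1 (46 genes), 0.34 between CTNNB1 and DCP1A (81), 0.58 between BAP1 and CYB561D2 (20), 0.66 among the second group of members (26) and 0.62 beyond CCDC12 (52). All of these medians were above 0, both inside and outside the stretches that hold the members. Ranked by this median, chromosome 22 stood first of 30 chromosomes at 0.53, followed by chromosome 21 and chromosome 10 at 0.43 each, and chromosome 16 was last at -0.46. The block was chosen on this same contrast and its members are counted in the rank. The rank is therefore a description and no separate support for a shift of the chromosome. DNA copy number was not analysed here.

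**Figure D4:**
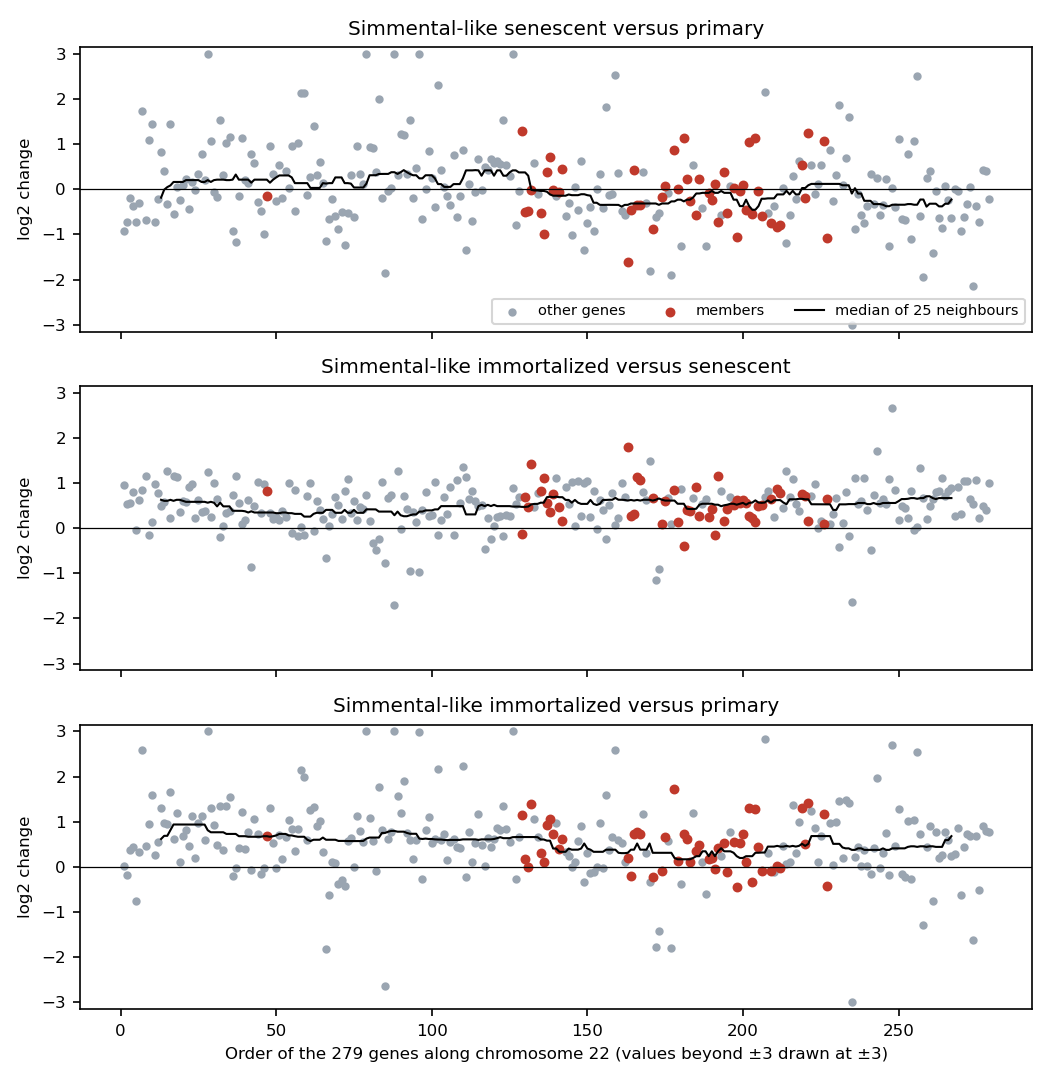
Log2 change in each Simmental-like comparison (vertical axes, values beyond 3 in size drawn at the edge) of the 279 chromosome 22 genes at 5 CPM or more, in their order along the chromosome, with members in red, other genes in grey and the running median of 25 neighbouring genes as a black line. From senescent to immortalized the line stays above 0 over its whole length and passes through the members without a step.

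Genes that work with the members but lie on other chromosomes were called about as often as all genes. Over 12 lists of partners, 128 tested genes in all, 21 were higher and 18 lower from senescent to immortalized, beside 16.4% and 16.1% of all genes, with a median of -0.07. From primary to senescent 31 were higher and 44 lower, beside 28.3% and 29.7%, with a median of -0.02. These shares are the background for each list below as well, and no list is read as standing apart from them. The 17 other SWI/SNF subunits held 4 higher and 0 lower at the second step, with a median of 0.14, led by SMARCD3 from 19.9 to 51.03 TMM CPM (log2 1.36, SE 0.25, adjusted p = 0.0039). The 9 Polycomb deubiquitinase partners of BAP1 held 0 higher and 2 lower, ASXL2 (log2 -1.17, SE 0.37) and FOXK1 (-0.83, SE 0.15). Of 8 tested genes of the histone mark that SETD2 writes, 1 was higher and 3 lower, among them ASH1L at -0.92 (SE 0.19).

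In the list around CTNNB1 0 of 10 were higher and 2 lower at that step, TCF7 at -1.51 (SE 0.16) and the cyclin gene CCND1 at -0.64 (SE 0.15), while CTNNB1 itself was higher. Of 14 GATOR and mTORC1 genes 5 were higher and 2 lower, the latter being RRAGC at -1.05 (SE 0.19) and TSC1 at -0.81 (SE 0.16). The 11 Hippo and RASSF genes held 1 higher and 2 lower, WWTR1 at -1.05 (SE 0.34) and STK4 at -0.79 (SE 0.25).

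For the metabolic members, the 6 other pentose phosphate genes beside TKT had 0 calls at the second step (median 0.01), after 4 of them were lower at the first, led by PGD at -1.74 (SE 0.16). In the list of glutathione enzymes, set beside the unanalysed GPX1, 2 of 7 were higher and 2 lower, including GPX3 at -3.96 (SE 0.26). Respiratory complex III and complex I assembly genes held 1 higher and 2 lower of 13, after 9 lower and 2 higher at the first step. Among 8 guanine nucleotide genes 2 were higher, IMPDH1 at 0.99 (SE 0.12) and ADSL at 0.54 (SE 0.10). Of 12 genes of the dystroglycan complex and laminins 3 were higher and 2 lower, with DMD at 1.13 (SE 0.16) and LAMA2 at -0.74 (SE 0.18).

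Differences among the primary libraries followed the length of the genes. Members were divided into 17 short ones (span up to 8.85 kb in the RefSeq table), 17 of middle length and 17 long ones (above 35.9 kb). Primary library 1 over primary library 2 had a median log2 ratio of 0.42 in the short, 0.55 in the middle and -1.06 in the long members. Over all 9387 genes with a span these medians were 0.68, 0.12 and -0.52. From primary to senescent the medians of the short, middle and long members were -0.35, -0.45 and 0.23, where all genes gave -0.59, -0.15 and 0.29. From senescent to immortalized they were 0.61, 0.50 and 0.35, where all genes gave 0.20, 0.05 and -0.11. Long members were thus low in primary library 1, and a correction for span is given below. The Spearman correlation of span with the primary 1 over primary 2 ratio was -0.56 over the 51 members, which share these 2 libraries.

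The members with the highest first steps, DCP1A, SMARCC1, PRKAR2A and IP6K1, were long, and NDUFAF3 and CYB561D2 with low first steps were short, whereas CCDC12, also low at that step, was long. When each member's ratio was set against the median of 500 genes of like span on other chromosomes, an alternative added after the data were seen, the block median was 0.47 from senescent to immortalized, -0.04 for primary over senescent and 0.56 from primary to immortalized. In each of the 3 span groups the median change from senescent to immortalized was above 0. The block was chosen on this contrast, so this is a description, and the part of gene length in the change was not tested.

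**Figure D5:**
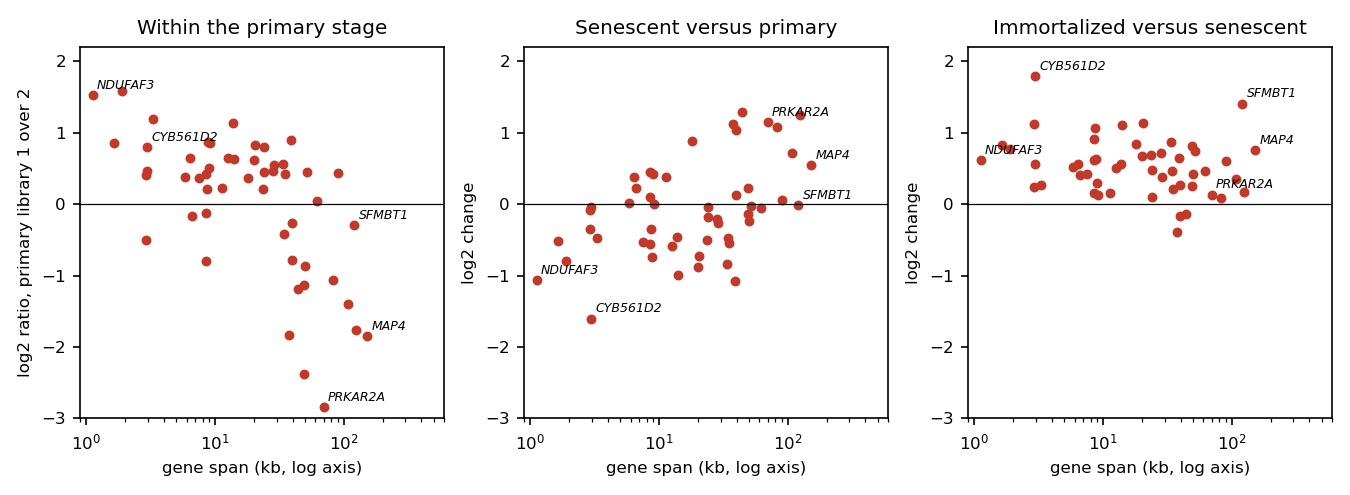
Gene span (horizontal, kb on a log axis) of the 51 kept members against the log2 ratio of primary library 1 over 2 (left), the log2 change from primary to senescent (middle) and from senescent to immortalized (right), with 1 point per member. Long members lie low on the left, down to PRKAR2A, and high in the middle, while on the right most points lie above 0 at every span.

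In the Holstein-like libraries, which did not enter the choice, the block median of the immortalized stage lay close to that of the senescent stage after TMM scaling. The median log2 ratio to the senescent mean was -0.05, 0.01 and 0.14 in the immortalized libraries (mean 0.03 ± 0.09, SD, n = 3; 0.14 with upper quartile and 0.50 with total-count scaling) and -0.11, 0.01 and -0.12 in the senescent ones, where all genes gave -0.14, -0.09 and -0.06 in the immortalized libraries. In the primary libraries it was -0.28, -0.30 and -0.33, where all genes gave -0.38 to -0.40. Of 50 tested members (TRAIP, at 0 to 0.94 CPM, was not tested) 0 passed the threshold, where 0% of all genes did. In edgeR 1 member, PRKCD, and 631 of 9806 genes at 5 CPM or more in the Simmental-like libraries had an unadjusted p under 0.05. DESeq2 called 0 members and 33 of all genes. Whether this differs from the Simmental-like change was not tested, since the libraries of one Holstein-like stage carry markers of different organs.

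Between primary and later Holstein-like libraries single members differed strongly. From primary to senescent 3 were higher and 5 lower, beside 15.2% of all genes in either direction, and from primary to immortalized 8 were higher and 6 lower, beside 24% of all genes. ARIH2 was at 318, 333 and 341 TMM CPM in the primary, 53.8, 22.8 and 22.2 in the senescent and 23.5, 24.1 and 24.9 in the immortalized libraries. The primary libraries were far above all others, with log2 changes of -3.33 (SE 0.47, adjusted p = 0.0091) and -3.77 (SE 0.48, adjusted p = 0.0059). PRKAR2A was at 254, 287 and 251 TMM CPM in the primary, 75.01, 47.3 and 32.2 in the senescent and 31.8, 51.95 and 20.3 in the immortalized libraries, again highest in the primary ones, with -2.36 (SE 0.50, adjusted p = 0.023) for senescent.

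RNF123, USP19 and TUSC2 were also lower in both later stages, and TUSC2 was at 7.33, 9.13 and 7.44 TMM CPM in the primary, 1.99, 2.65 and 1.47 in the senescent and 1.69, 1.60 and 2.66 in the immortalized libraries. In the Simmental-like line TUSC2 was among the 5 members with the highest second step. RHOA was at 42.2, 44.7 and 33.5 TMM CPM in the primary, 113, 98.7 and 74.5 in the senescent and 84.7, 98.5 and 135 in the immortalized libraries, higher in both later stages with 1.25 (SE 0.34, adjusted p = 0.043) and 1.40 (SE 0.34, adjusted p = 0.026), as was TCTA. UBA7 was called higher in senescent libraries, at 9.17, 6.39 and 4.65 TMM CPM in the primary, 107, 48.97 and 288 in the senescent and 174, 11.9 and 31.1 in the immortalized libraries, widely spread within that stage. TKT, PRKCD, NT5DC2, GNAI2, WDR6 and SHISA5 were called higher and DAG1 lower in immortalized than in primary libraries, with no call for the senescent ones. Their senescent changes ran in the same direction, for example 2.16 (SE 0.74, adjusted p = 0.078) beside 2.89 (SE 0.76, adjusted p = 0.032) for TKT and -1.48 (SE 0.47, adjusted p = 0.064) beside -1.57 (SE 0.47, adjusted p = 0.044) for DAG1. GNAI2 ran up to 425 TMM CPM in immortalized library 3, which holds fibroblast, endothelial and immune markers, and their part in this level was not tested.

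PFKFB4, below the level filter in the Simmental-like line, was at 314, 298 and 317 TMM CPM in the primary, 4.45, 0.402 and 1.40 in the senescent and 1.12, 2.76 and 4.11 in the immortalized libraries, with -7.21 (SE 1.01, adjusted p = 0.0091) from primary to senescent. Skeletal muscle markers made up 16.0 to 16.2% of the counts in the same primary libraries and at most 1.28% elsewhere, and their part in these differences was not tested. With the counts of the 3 nearly identical primary libraries summed into 1 library, 0 members and 0 of all genes passed the threshold in either comparison with the primary stage. From primary to senescent, 1 member passed without any 1 primary library or without senescent library 2 or 3, where 1.03 to 2.63% of all genes did, and 13 passed without senescent library 1, where 25.8% of all genes did. From primary to immortalized, 3, 3 and 2 passed without primary library 1, 2 and 3, where 2.99 to 3.79% of all genes did, and 9 without immortalized library 1 or 2, where 12.8% and 15.6% did. Scaling by total counts gave 21 higher and 2 lower members from primary to immortalized in place of 8 and 6. All genes moved the same way, to 4778 higher and 545 lower in place of 2036 and 1162.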

How the data were processed

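RNA was sequenced from 18 libraries, 3 per stage in each of 2 lines. The authors deposited estimated counts of salmon, summed to Ensembl genes, going by the file's name. The genome build was UMD3.1, per the submitters' processing notes. Sources used here name no aligner, salmon version, annotation or strand setting. All values were rounded, since 1.01% to 7.18% per library were not whole.

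Both lines were fitted separately, 9 libraries each, in edgeR 4.0.16 (R 4.3.3). The steps were filterByExpr by group, TMM scaling, robust quasi-likelihood F-tests per pair of stages, Benjamini-Hochberg adjustment over all genes tested, and a threshold of 0.05. This covered 13099 genes in the Simmental-like and 13312 in the Holstein-like line. The fit was also run on simulated counts, for the senescent to immortalized comparison only and with changes larger than the block's shift. Its outcome is not reported here. A fold change is that of the fit. The SE of a log2 change is its size divided by the square root of F, with the spread estimated over all 9 libraries of the line. Block medians are medians over members of log2(TMM CPM + 0.5) relative to a stage mean.

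The members, roles, partner lists and markers were chosen with earlier results of these data known. Named genes follow a rule: 12 members known for growth control or chromatin, the 5 highest and 5 lowest changes from senescent to immortalized, and the 3 highest and 3 lowest from primary to senescent. Up to 2 partner genes per list with the largest change past the threshold are named, and the other members are given by role. The result of 1 partner list is not reported here. Values of TRAIP, TKT, UQCRC1, MAP4, DAG1, HYAL2, PFKFB4 and KLF15 and of Holstein-like members were added after they were seen. RefSeq (ARS-UCD2.0) gave chromosome, gene order and span, but no coordinates, since the builds differ. No sequence is printed. Alternatives were other scalings, filters, pseudocounts and thresholds, DESeq2 1.42.0, a replicate block, fits on 6 libraries and leaving out each library.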

Additional observations from a re-analysis of the deposited data

How the results depend on the processing

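The Simmental-like block median stayed positive from senescent to immortalized under every alternative run. It was 0.36 with total-count scaling, which moved the median of all genes by -0.16, and 0.47 after the correction for gene span, which was added after the data were seen. The median for primary over senescent was -0.37 with total-count scaling and -0.043 after the span correction. For immortalized over primary it was 0.47 with upper quartile and 0.71 with total-count scaling, 0.55 over all chromosome 22 genes, 0.56 after the span correction and 0.39 to 0.47 when libraries were left out one at a time. In the Holstein-like line, immortalized over senescent was 0.14 with upper quartile and 0.50 with total-count scaling and -0.10 for the summed CPM. Primary over senescent was -0.23 with RLE, -0.13 with upper quartile and -0.61 with total-count scaling, -0.39 over all chromosome 22 genes, -0.37 to -0.20 with libraries left out and, reversed, 0.27 for the summed CPM.

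The count of Simmental-like members past the threshold in senescent versus primary libraries was 15 in a fit on the 6 libraries compared, 15 with senescent libraries 1 and 2 summed, 13 at an adjusted p under 0.01 and 15 to 31 with libraries left out, the lowest without senescent library 1. The share of all genes called was 45.7, 44.8, 38.1 and 44.1 to 68.0% in these settings. For immortalized versus senescent the count of members was 43, 18, 16 and 16 to 39 in the same order. These stood beside 66.8, 22.4, 19.5 and 21.8 to 58.6% of all genes. For immortalized versus primary the count was 16 at 0.01, beside 34.1% of all genes. Without primary library 1 the count of 28 became 39 (38 higher, 1 lower), with all 28 still past the threshold, and the 43 of the fit on 6 libraries were 41 higher and 2 lower. All genes called went from 32.4% to 58.6% and 66.8% in these settings. In the Holstein-like line, senescent versus primary gave 1 member at 0.01 and 1 to 13 with libraries left out, the highest without senescent library 1. These stood beside 0.96% and 1.03 to 25.8% of all genes. Immortalized versus primary gave 23 members with total-count scaling, 1 at 0.01 and 2 to 16 with libraries left out, the lowest without primary library 3. Beside them 40.0, 2.03 and 2.99 to 30.7% of all genes were called.

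The deviations of libraries with the same replicate number had correlations from -0.60 to 0.33 in the Simmental-like line. With 3 libraries per stage these values cannot settle whether the numbers pair libraries, and the main fits took no pairing. With a replicate block the Simmental-like counts were 20, 22 and 24 in place of 24, 28 and 25, and the Holstein-like counts were 1 for senescent and 6 for immortalized versus primary in place of 8 and 14. All genes called were then 51.5, 26.5 and 43.9% in the Simmental-like line, and 2.28 and 8.33% in the Holstein-like line. DESeq2 gave 27, 28 and 27 members in the Simmental-like line, beside 62.9, 38.7 and 55.7% of all genes. In the Holstein-like line it gave 12, 0 and 17 members, beside 29.6, 0.25 and 37.1% of all genes. Depth limits the Holstein-like primary libraries, where 3 counts are 2.05 to 2.11 CPM.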
